A study of Homo sapiens with 14 samples.

Results

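The forms of activated MRTFB that cannot bind SRF were compared with empty vectors in MCF-10A cells. MRTFB (gene symbol MKL2 in the deposited table) is a coactivator that monomeric G-actin holds inactive. When it is free of G-actin it binds the transcription factor SRF at CArG boxes and switches on genes of the actin cytoskeleton, and through a PY motif it can also bind YAP, the coactivator of the TEAD factors. Loss of SRF binding removes the best known route from MRTFB to its targets, so the comparison asks which genes still differ once that route is gone.

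The comparison took 8 of the 14 libraries of the series: 4 of SRF-binding-deficient MRTFB and 4 of empty vectors, picked by their labels. All were MCF-10A, an immortalised mammary epithelial line, harvested on day 2 after infection with retrovirus. MRTFB dN Y305A (2 libraries) lacks binding to G-actin and, through the Y305A substitution, to SRF. MRTFB dN Y305A/dPY (2 libraries) also lacks binding to YAP. The Hygro vector (2 libraries) and the Puro vector (2 libraries) are the empty pMSCV plasmids with these names. The labels do not say which of them carries the MRTFB forms, so both served as controls and the difference between them counts as spread. The 4 libraries of MRTFB dN and MRTFB dN dPY (2 each), which lack G-actin binding but keep SRF binding, are used for contrast and are called the SRF-binding forms. Nothing in the labels says whether libraries with the same label came from separate infections, so p-values measure the spread between these libraries. The cells are 1 line, and the protein level of the introduced forms was not measured.

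Poly(A) RNA was sequenced, and the values are FPKM, fragments scaled by gene length and by library size. Depth in reads is unknown. Relative to Hygro vector replicate 1, the depth read from the lowest values was 0.753 to 1.09 in the 4 SRF-binding-deficient libraries and 0.314 to 1 in the vectors, with Puro vector replicate 1 at the low end. That library also had 4780 unnamed loci at 1 FPKM or more, against 211 to 562 in the other 7, and they held 58.8% of its FPKM. Libraries of the 2 SRF-binding-deficient forms with the same number lay together: on the first principal component of the 8 libraries (49.1% of the variance) replicates 1 stood at 57.01 and 60.01, replicates 2 at 17.9 and 20.0, the Hygro vector at -7.62 and 7.04, and the Puro vector at -94.8 and -59.6. The cells carried basal epithelial keratins (KRT5 1971 to 4364 FPKM in SRF-binding-deficient libraries and 554 to 5085 in vectors). KRT8 and KRT18 are listed at 0 in replicate 1 of both SRF-binding-deficient forms beside 9623 to 16610 FPKM in replicates 2. Such zeros can be failed estimates. Between 11 and 29 of 11178 expressed named loci were at 0 in a SRF-binding-deficient library, against 7 to 30 in a vector.

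The introduced gene was visible in every library. MKL2 stood at 404 and 294 FPKM in MRTFB dN Y305A. MRTFB dN Y305A/dPY libraries had 610 and 343, against 4.57 and 3.06 in the Hygro vector and 6.6 and 3.66 in the Puro vector. All 4 SRF-binding-deficient libraries lay far above all vectors (log2 difference of FPKM + 1 6.23 ± 0.31, SE, n = 4 each, adjusted p = 6.4e-06). FPKM of the introduced and of the cells' own MKL2 cannot be told apart. In the SRF-binding forms MKL2 stood at 164.6 to 299.5 FPKM (SRF-binding-deficient minus SRF-binding 0.84 ± 0.29, adjusted p = 0.053). The contrasts with those forms below are not adjusted for this difference. The partners of MRTFB did not pass the test against vectors. SRF was at 7.7, 7.62, 8.34 and 6.74 FPKM in the SRF-binding-deficient libraries, inside the vectors' range of 3.13 to 16.4 (0.18 ± 0.39, adjusted p = 0.79). MKL1, the related coactivator MRTFA, differed by 0.42 (adjusted p = 0.37), YAP1 by 0.43 (adjusted p = 0.42), TEAD1 by 0.26 (adjusted p = 0.57), TEAD2 by 1.10 (adjusted p = 0.10), TEAD3 by -0.06 (adjusted p = 0.89) and TEAD4 by 0.95 (adjusted p = 0.085). WWTR1, which encodes the YAP paralog TAZ, was at 5.12 to 9.86 FPKM against 1.92 to 3.71 in vectors, with no overlap, and narrowly missed the threshold of 0.05 (1.09 ± 0.25, adjusted p = 0.0502).

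Of 12390 named loci with 1 FPKM or more in at least 2 of the 8 libraries, 339 (2.74%) differed at an adjusted p under 0.05. These were 222 higher (1.79%) and 117 lower (0.944%) in SRF-binding-deficient MRTFB. At this threshold every one of the 339 had its 4 values outside the range of the 4 vectors. Without a test, 1120 loci (9.04%) lay above every vector and 778 (6.28%) below. A log2 difference of 2 or more was reached by 61 of the higher and 40 of the lower loci. Short noncoding RNA made up 6 of the lower loci and none of the higher. The largest called fall, 11.9 on the log2 scale, is not among the genes named below. With no overlap between the groups, both forms necessarily share the direction; the medians were 1.49 in MRTFB dN Y305A and 1.55 in MRTFB dN Y305A/dPY for the higher loci, and -1.54 and -1.57 for the lower ones. The forms share their vector libraries in these values. The number of calls rests on single libraries: without Puro vector replicate 1 it was 78 higher (0.63%) and 69 lower (0.557%), without any 1 of the 4 SRF-binding-deficient libraries it was 46 to 95 higher and 24 to 60 lower, and without Hygro vector replicate 2 it was 501 and 268. In all 8 such refits 42 higher and 23 lower loci kept the call.

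**Figure D1:**
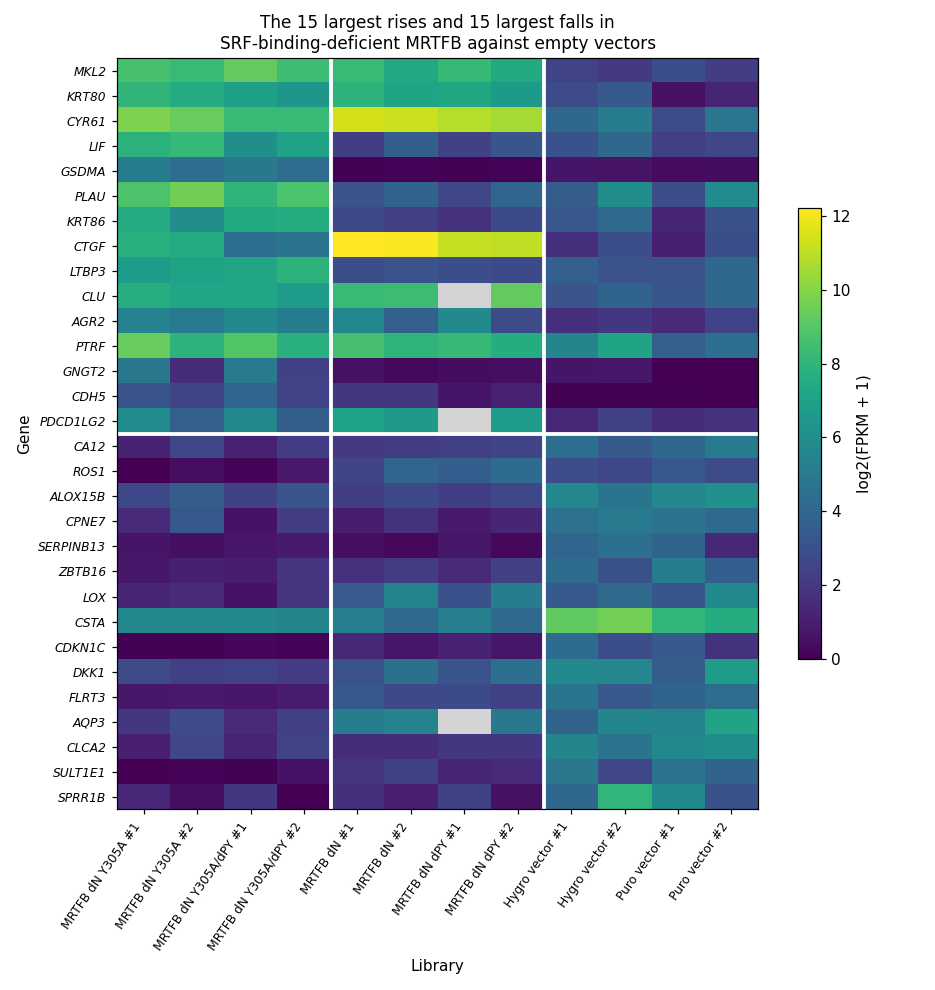
Log2(FPKM + 1), as colour and per library, of the 15 genes with the largest rise (top) and the 15 with the largest fall (bottom). They were ranked among called loci with 1 name found once and a mean of 3 FPKM or more, without short noncoding RNA. Columns are the SRF-binding-deficient forms, the SRF-binding forms and the empty vectors, # is the replicate number and grey marks a missing value. LIF, GSDMA, PLAU, KRT86 and LTBP3 are brightest in the left block, while CTGF and CYR61 are brightest in the middle block.

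Over all loci 1.79% were called higher and 0.944% lower, the shares to set beside the list counts from here on. Genes of the actin cytoskeleton, the known targets of MRTF and SRF, mostly did not pass the test against vectors. Of 34 loci of this list 1 rose and none fell: CNN3, an actin-binding calponin, had 47.4, 34.3, 51.3 and 29.5 FPKM in SRF-binding-deficient libraries, against 12.5, 20.2, 8.03 and 13.4 in vectors (1.55 ± 0.31, adjusted p = 0.032). That call was lost in 7 of the 8 refits, all but the one without Hygro vector replicate 2 (adjusted p up to 0.12, difference 1.47). The list's median difference was 0.75, beside 0.07 over all loci, and was 0.16 against the Hygro vector and 1.23 against the Puro vector. ACTG2, smooth muscle gamma actin, was at 0.789, 0.872, 0 and 0.114 FPKM, against 0.254, 2.55, 1.21 and 1.12 in vectors (-0.62, adjusted p = 0.28). In the SRF-binding forms the same gene stood between 36370 and 68490 FPKM.

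ACTA2, smooth muscle alpha actin, was at 9.24 to 17.7 FPKM in SRF-binding-deficient libraries, against 4.26 to 8.18 in vectors (0.90, adjusted p = 0.10) and 16820 to 52270 in the SRF-binding forms. It lay above all vectors without passing, and far below the SRF-binding forms (-10.99 ± 0.35, adjusted p = 2.1e-07). MYL9, a myosin light chain, had 0.478 to 0.842 FPKM against 0.606 to 38.4 in vectors (-1.66, adjusted p = 0.23). The locus that holds TAGLN, transgelin, together with PAFAH1B2 and SIDT2 had 21.6 to 35 FPKM against 25.5 to 271 (-1.06, adjusted p = 0.30). Vinculin (VCL, 0.73, adjusted p = 0.26) and tropomyosin 1 (TPM1, -0.02, adjusted p = 0.98) did not pass, and CNN1 was listed at 0 in all 8 libraries. CNN1 was at 0 to 0.0571 FPKM in the SRF-binding forms as well, so its zeros show nothing about SRF binding. Against the SRF-binding forms, 27 of the 34 loci were lower and 1 was higher, beside 16.5% lower and 18.6% higher over all loci in that comparison.

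Targets of YAP and TEAD gave a mixed picture: 2 of 34 loci rose and 1 fell, with a median difference of 0.00. Over all loci 1.79% rose and 0.944% fell. CYR61, a secreted matricellular protein, had 929 and 655 FPKM in the libraries of MRTFB dN Y305A and 296 and 306 in those of MRTFB dN Y305A/dPY, against 16.4 and 35.1 in the Hygro vector and 5.85 and 26.9 in the Puro vector. It rose 26.1-fold on the FPKM + 1 scale (4.71 ± 0.56, adjusted p = 0.0035), and kept the call whichever library was left out. In the SRF-binding forms it was higher still, at 1487 to 2760 FPKM (SRF-binding-deficient minus SRF-binding -2.10, adjusted p = 0.0039). CTGF, its relative and the textbook TEAD target, had 213 and 184 FPKM in the libraries of MRTFB dN Y305A and 21.2 and 24.6 in those of MRTFB dN Y305A/dPY, against 2.23 and 6.65 in the Hygro vector and 1.12 and 6.54 in the Puro vector. All 4 values lay above the vectors (3.95 ± 0.79, adjusted p = 0.032), but far below the 2078 to 4712 FPKM of the SRF-binding forms (-5.52 ± 0.78, adjusted p = 0.00073). The call was lost without Hygro vector replicate 1, Puro vector replicate 1 or either MRTFB dN Y305A library (adjusted p up to 0.098, difference 3.40).

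DKK1, a secreted inhibitor of Wnt signalling, went the other way. It had 6.08, 3.92, 4.48 and 3.5 FPKM in SRF-binding-deficient libraries, against 54.7, 48.5, 11.1 and 105 in vectors (-3.0 ± 0.55, adjusted p = 0.024), and lost its call without any 1 of the 4 SRF-binding-deficient libraries (adjusted p up to 0.082, difference -3.01). ANKRD1, a nuclear ankyrin-repeat protein, had 3.2, 1.11, 0.759 and 0.836 FPKM against 0.422, 0.457, 0.0849 and 0.034, with no overlap and no call (0.91, adjusted p = 0.13), beside 454 to 982 in the SRF-binding forms. AMOTL2, an angiomotin that binds YAP, also lay above all vectors without a call (1.35, adjusted p = 0.11), and AXL, a receptor tyrosine kinase, overlapped with them (-1.07, adjusted p = 0.39).

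The promoter windows of CTGF and ANKRD1 are shown with that of ACTG2 because they carry the motifs of the routes in question, TEAD and SRF. SRPX2, which encodes a secreted sushi-repeat protein, is shown as a gene that rose and whose window carries an AP-1 motif; it was chosen after its values were seen. Sequences are from RefSeq on GRCh38.p14, read 5′ to 3′ on the gene's strand, from 250 bases before the annotated start to 50 after it. Capitals mark GGAATG (TEAD), TGANTCA (AP-1) and the CArG box, searched on both strands. CTGF lies at chr6:131951323-131951622 on the minus strand, ANKRD1 at chr10:90921038-90921337 on the minus strand, ACTG2 at chr2:73892758-73893057 on the plus strand and SRPX2 at chrX:100643949-100644248 on the plus strand.
CTGF: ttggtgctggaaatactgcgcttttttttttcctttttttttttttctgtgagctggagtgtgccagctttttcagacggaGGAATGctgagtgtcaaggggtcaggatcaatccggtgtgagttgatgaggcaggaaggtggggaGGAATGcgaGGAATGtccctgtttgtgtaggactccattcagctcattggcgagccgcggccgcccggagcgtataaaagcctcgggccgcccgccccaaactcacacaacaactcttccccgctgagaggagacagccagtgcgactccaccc
ANKRD1: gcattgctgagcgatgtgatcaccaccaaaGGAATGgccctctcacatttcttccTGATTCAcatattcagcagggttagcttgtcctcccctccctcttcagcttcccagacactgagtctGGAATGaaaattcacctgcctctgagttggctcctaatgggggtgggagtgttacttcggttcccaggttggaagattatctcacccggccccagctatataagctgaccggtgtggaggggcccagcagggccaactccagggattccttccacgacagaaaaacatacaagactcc
ACTG2: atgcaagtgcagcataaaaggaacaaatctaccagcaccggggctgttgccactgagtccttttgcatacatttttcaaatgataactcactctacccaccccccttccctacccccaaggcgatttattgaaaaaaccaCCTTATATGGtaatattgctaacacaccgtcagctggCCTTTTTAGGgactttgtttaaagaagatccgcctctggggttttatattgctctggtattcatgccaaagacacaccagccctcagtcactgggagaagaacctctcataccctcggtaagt
SRPX2: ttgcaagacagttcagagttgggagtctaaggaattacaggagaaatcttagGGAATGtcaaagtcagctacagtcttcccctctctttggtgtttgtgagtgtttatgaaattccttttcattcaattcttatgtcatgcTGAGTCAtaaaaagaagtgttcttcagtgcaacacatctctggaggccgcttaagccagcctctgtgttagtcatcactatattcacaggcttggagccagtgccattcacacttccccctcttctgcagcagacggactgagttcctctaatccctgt
CTGF held 3 TEAD motifs, the first at 169 bases before the start, and ANKRD1 held 2 with 1 AP-1 motif. ACTG2 held 2 CArG boxes and neither of the other motifs, and SRPX2 held 1 TEAD and 1 AP-1 motif. SRPX2 had 144, 115, 135 and 101 FPKM, against 19.2, 18.3, 19.5 and 35.1 in vectors (2.41 ± 0.29, adjusted p = 0.0035).

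Among all genes tested, 8300 with a single name matched a promoter window. A CArG box was present in 0.66% of the 152 matched windows of genes that rose, 1.35% of the 74 of genes that fell and 1.04% of all. The TEAD motif was present in 13.8%, 10.8% and 10.5%, and the AP-1 motif in 11.2%, 9.46% and 4.77%. In number, 17 windows of genes that rose and 7 of genes that fell held an AP-1 motif, and 1 each held a CArG box. Letters in a window are a description of sequence and not of binding.

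**Figure D2:**
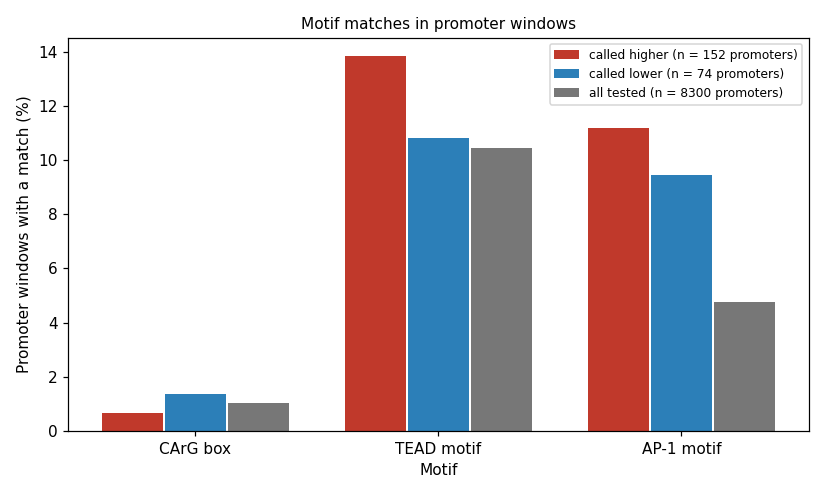
Percent of promoter windows with at least 1 match to each motif, for genes that rose, genes that fell and all genes tested with a matched window. The CArG bars are near 1% throughout, and the AP-1 bars of the genes that rose (11.2%) and fell (9.46%) stand above that of all genes (4.77%).

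Outside the lists of MRTF, SRF, YAP and TEAD targets, the largest named rises after MKL2 were KRT80, LIF, GSDMA, PLAU and KRT86. LIF, a cytokine of the interleukin 6 family, had 228 and 288 FPKM in the libraries of MRTFB dN Y305A and 63.5 and 130 in those of MRTFB dN Y305A/dPY, against 7.5 and 15.8 in the Hygro vector and 4.03 and 5.13 in the Puro vector. It rose 18.9-fold (4.24 ± 0.51, adjusted p = 0.0037) and was 3.8 to 12 FPKM in the SRF-binding forms, so that it was higher than in those as well (4.37 ± 0.50, adjusted p = 0.00021). LTBP3, which holds latent TGF-beta in the matrix, had 103, 132, 149 and 239 FPKM against 12.2, 7.66, 7.6 and 16.5 (3.70 ± 0.34, adjusted p = 0.00079), and 5.79 to 7.76 in the SRF-binding forms. PLAU, the urokinase plasminogen activator, had 444, 763, 250 and 425 FPKM against 11.3, 65.4, 6.33 and 57.2. Replicates 2 of both vectors were the higher ones for PLAU, and all vectors stayed below all SRF-binding-deficient libraries (4.17 ± 0.70, adjusted p = 0.018); the call was lost without MRTFB dN Y305A replicate 1 or MRTFB dN Y305A/dPY replicate 2 (adjusted p up to 0.062, difference 4.16).

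GSDMA and KRT86 shared this pattern of a rise with no counterpart in the SRF-binding forms. GSDMA, a gasdermin whose cleaved form opens pores in membranes, had 33.9, 19.9, 30 and 19.2 FPKM against 0.593, 0.54, 0.269 and 0.304 in vectors (4.2 ± 0.24, adjusted p = 1.5e-05), and 0.0414 to 0.104 in the SRF-binding forms. KRT86, a hair keratin, had 180, 65.1, 167 and 190 FPKM against 9.1, 17.8, 1.43 and 7.22 (4.16 ± 0.58, adjusted p = 0.0081). By contrast KRT80, an epithelial type II keratin, rose to 249, 185, 120 and 88.1 FPKM, against 5.96, 9.59, 0.451 and 1.44 in vectors (5.22 ± 0.60, adjusted p = 0.003), and was at a like level in the SRF-binding forms, 99.5 to 234 FPKM (difference -0.02 ± 0.36, adjusted p = 0.97). Reads of hair keratins can be shared among close copies, and how the counting split them is not stated.

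**Figure D3:**
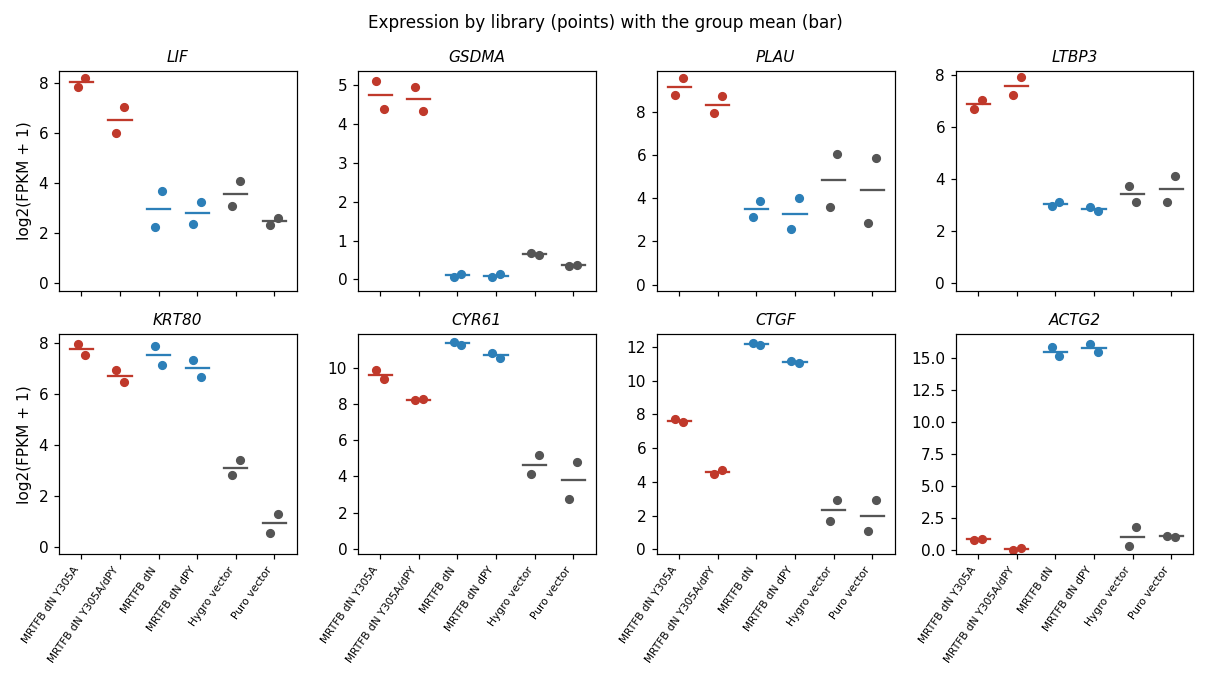
Log2(FPKM + 1) of 8 genes in each library (points) with the group mean (bars); red marks the SRF-binding-deficient forms, blue the SRF-binding forms and grey the empty vectors, and the axes differ between panels. LIF, GSDMA, PLAU and LTBP3 stand highest in red, KRT80 and CYR61 stand above the vectors in red and blue, CTGF is intermediate in red, and ACTG2 is high only in blue.

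CLU, the extracellular chaperone clusterin, had 193, 145, 151 and 103 FPKM against 8.34, 14.1, 8.75 and 16.2 in vectors (3.55 ± 0.31, adjusted p = 0.00048). AGR2, a protein disulfide isomerase of secretory epithelia, had 41.1, 31, 54.9 and 34 against 2.11, 2.93, 1.75 and 4.4 (3.46 ± 0.28, adjusted p = 0.0004). Both kept their calls whichever library was left out. In the SRF-binding forms CLU was higher, at 311 to 616 FPKM with 1 library missing (SRF-binding-deficient minus SRF-binding -1.47, adjusted p = 0.007). AGR2 stood at 5.86 to 55.7 FPKM there (0.83, adjusted p = 0.35). PTRF, the caveolar coat protein cavin 1, had 664, 237, 472 and 212 FPKM against 45.5, 139, 12.2 and 20.7 (3.27 ± 0.69, adjusted p = 0.038), with replicates 1 of both forms above replicates 2. The SRF-binding forms had 188 to 388 FPKM of PTRF (0.40, adjusted p = 0.46).

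GNGT2, a G protein gamma subunit, split by replicate number even more: 28.9 and 30.6 FPKM in replicates 1 and 1.94 and 4.33 in replicates 2, against 0.592, 0.752, 0 and 0 in vectors (3.09 ± 0.71, adjusted p = 0.049). PDCD1LG2, the PD-1 ligand PD-L2, had 60.5, 12.5, 48.5 and 11.9 FPKM against 1.69, 4.27, 2.02 and 2.38 (2.96 ± 0.52, adjusted p = 0.021). For both genes the lowest SRF-binding-deficient library was still above the highest vector. PDCD1LG2 was higher in the SRF-binding forms, at 95.5 to 135 FPKM with 1 library missing (-2.035, adjusted p = 0.028). GNGT2 was lower there, at 0.195 to 0.469 FPKM (3.04, adjusted p = 0.011). PTRF and GNGT2 each lost the call in 6 of the 8 refits, without Puro vector replicate 1 among them (adjusted p up to 0.14 and 0.15, differences 2.96 and 2.62), and PDCD1LG2 in 3 (adjusted p up to 0.075, difference 2.67). CDH5, the cadherin of endothelial junctions, had 8.3, 4.9, 14.6 and 4.51 FPKM against 0.0615, 0.0465, 0.0391 and 0 (3.0 ± 0.32, adjusted p = 0.0019). The other 3 endothelial markers did not accompany it: PECAM1, VWF and KDR were all below 0.24 FPKM in every one of the 8 libraries, and the summed level of the 4 markers was 4.66 to 14.8 FPKM against 0.153 to 0.349.

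Genes of integrins, matrix and proteases held calls in both directions, to be read beside 1.79% higher and 0.944% lower over all loci. The locus of ITGA3 (integrin alpha 3, a laminin receptor) and PDK2 had 1070, 986, 1092 and 1313 FPKM against 205, 147, 116 and 274 (2.65 ± 0.37, adjusted p = 0.0081), and PARVA, a focal adhesion adaptor, had 17.9, 11.8, 20.8 and 14.6 against 5.16, 5.5, 2.86 and 2.36 (1.83, adjusted p = 0.012). ITGB8, an integrin beta chain that activates TGF-beta, fell to 1.28 to 1.92 FPKM, against 6.18 to 10.3 in vectors (-1.86 ± 0.21, adjusted p = 0.0027). Of 26 loci of integrins and focal adhesion 2 rose and 1 fell, with a median of 0.32. Of 21 matrix loci 2 fell and none rose. These were the locus of COL7A1, the anchoring-fibril collagen, with MIR711 and UCN2, at 0.553, 2.42, 0.719 and 2.6 FPKM against 12.7, 14.7, 15.5 and 33.2 (-2.96 ± 0.37, adjusted p = 0.0044), and that of COL17A1, the hemidesmosomal collagen, with MIR936, at 22 to 45.6 FPKM against 71.5 to 147 (-1.70, adjusted p = 0.03).

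Among 16 protease and inhibitor loci PLAU rose and MMP28 (epilysin, an epidermal metalloprotease) fell, with 1.23, 1.67, 3.21 and 4.69 FPKM against 26.2, 32, 76.2 and 24.9 (-3.41 ± 0.41, adjusted p = 0.0035). MMP28 was also low in the SRF-binding forms, at 1.09 to 2.46 FPKM (0.43, adjusted p = 0.31). LOX, the collagen cross-linking enzyme, fell to 0.5 to 2.7 FPKM, against 8.77 to 54.4 in vectors (-2.89, adjusted p = 0.022), and FLRT3, a surface protein with fibronectin and leucine-rich repeats, to 0.693 to 0.89 against 9.62 to 26 (-3.29 ± 0.28, adjusted p = 0.00048). Of 17 TGF-beta and SMAD target loci LTBP3 rose and none fell. PARVA and LOX lost the call without replicate 1 of either form (adjusted p up to 0.052 and 0.082, differences 1.70 and -2.64), and COL17A1 without Puro vector replicate 2 or 3 of the SRF-binding-deficient libraries (adjusted p up to 0.12, difference -1.60).

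The transcription factors TP63 and SNAI2 were among the named falls. TP63, the master factor of basal and squamous epithelium, had 0.545, 1.2, 0.687 and 1.22 FPKM in SRF-binding-deficient libraries, against 3.55, 5.74, 10.4 and 9.2 in vectors (-2.03 ± 0.31, adjusted p = 0.01). SNAI2, the zinc-finger repressor Slug, had 0.464, 0.817, 0.582 and 1.01 against 3.63, 5.82, 5.87 and 12.5 (-2.11 ± 0.31, adjusted p = 0.0096). Both kept their calls in all 8 refits. Of 15 basal epithelial loci, TP63 and COL17A1 fell and none rose, at a median of 0.08, and no other member passed. The share over all loci was 1.79% higher and 0.944% lower. In the list of epithelial-mesenchymal transition factors and mesenchymal genes, 1 of 9 loci rose and 1 fell, at a median of -0.23. SNAI2 was the one that fell, and the rise was that of CDH2, N-cadherin, at 7.64 to 9.55 FPKM against 0.492 to 3.06 (2.06 ± 0.33, adjusted p = 0.014; lost without replicate 1 of either form, adjusted p up to 0.06, difference 2.01).

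Squamous differentiation genes gave a single call. Of 26 loci 1 fell and none rose, beside 0.944% lower and 1.79% higher over all loci. By range, 7 lay below every vector and 1 above, beside 6.28% and 9.04% of all loci. The median was -1.34, with -2.17 against the Hygro vector and -0.59 against the Puro vector. SPRR1B, a cornified envelope precursor, had 1.6, 0.355, 2.83 and 0 FPKM against 16.3, 260, 55.6 and 7.17 (-4.31 ± 0.92, adjusted p = 0.039), and lost its call in 5 refits, those without Puro vector replicate 1 or any 1 SRF-binding-deficient library (adjusted p up to 0.11, difference -4.46). In the SRF-binding forms SPRR1B was also below every vector, at 0.463 to 4.38 FPKM. Outside the list, the epidermal protease inhibitors CSTA and SERPINB13 fell. Both were also below every vector in the SRF-binding forms, at 16.7 to 36.7 and 0.188 to 0.747 FPKM. CSTA had 46.4 to 52.9 FPKM against 189 to 781 (-2.94 ± 0.45, adjusted p = 0.011; adjusted p = 0.0502 and difference -2.96 without MRTFB dN Y305A/dPY replicate 1), and SERPINB13 had 0.413 to 0.862 against 1.69 to 21.8 (-2.76, adjusted p = 0.034; lost in 6 refits, adjusted p up to 0.11, difference -2.75). KLK7, a kallikrein of the shedding epidermis named after its values were seen, had 1.07, 0.226, 2.69 and 0.174 FPKM against 1032, 267, 25.1 and 1.21, which overlapped, and did not pass (-5.12, adjusted p = 0.096).

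Further large falls were in enzymes, channels and growth regulators. SULT1E1, the oestrogen sulfotransferase, had 0, 0.0833, 0.056 and 0.515 FPKM against 27.2, 5.1, 23.7 and 13.9 (-3.79 ± 0.43, adjusted p = 0.003). CLCA2, a chloride channel regulator of basal cells, had 1.05, 5.11, 1.38 and 4.74 against 45.6, 25.1, 51.4 and 66.6 (-3.66 ± 0.43, adjusted p = 0.0033). ALOX15B, a lipoxygenase, had 4.24 to 11.3 against 26.2 to 70.6 (-2.60, adjusted p = 0.0079). All 3 kept the call in every refit. CLCA2 and ALOX15B were also low in the SRF-binding forms, at 1.93 to 2.96 and 3.74 to 5.4 FPKM (adjusted p = 0.88 and 0.18 between the forms). SULT1E1 stood at 1.51 to 4.08 FPKM there (-1.54, adjusted p = 0.0011).

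CDKN1C, the cyclin-dependent kinase inhibitor p57, had 0.0558 to 0.156 FPKM against 2.48 to 18.3 (-2.98 ± 0.43, adjusted p = 0.0089), and ZBTB16, the transcriptional repressor PLZF, 0.701 to 2.73 against 7.1 to 34.8 (-2.86, adjusted p = 0.011). ROS1, a receptor tyrosine kinase, had 0.027 to 0.794 against 5.36 to 9.44 (-2.57 ± 0.25, adjusted p = 0.0011) and was at 4.91 to 18.1 FPKM in the SRF-binding forms. AQP3, the glycerol-conducting aquaporin, had 1.82 to 6.05 against 13.7 to 138 (-3.36, adjusted p = 0.02), CPNE7, a calcium-binding copine, 0.507 to 9.18 against 17.2 to 30.2 (-2.69, adjusted p = 0.024), and CA12, a carbonic anhydrase, 1.16 to 5.01 against 10 to 31.1 (-2.48, adjusted p = 0.017). In the SRF-binding forms CDKN1C (0.646 to 1.6 FPKM), ZBTB16 (1.82 to 3.98), CPNE7 (0.846 to 2.47) and CA12 (3.02 to 4.72) were also below every vector. AQP3 stood at 28.6 to 42.7 FPKM there with 1 library missing. AQP3 and CPNE7 lost the call in 4 refits each, those without Puro vector replicate 1, replicate 1 of either form or MRTFB dN Y305A/dPY replicate 2 (adjusted p up to 0.078 and 0.092, differences -3.14 and -2.54), and CA12 in 2, without replicate 1 of either form (adjusted p up to 0.064, difference -2.25).

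Interferon response genes were high in all 4 SRF-binding-deficient libraries and in 1 of the 4 vectors. Over 28 loci the median per library was 82.7 and 26.1 FPKM for MRTFB dN Y305A and 98.5 and 103 for MRTFB dN Y305A/dPY, against 67.1 and 6.11 in the Hygro vector and 2.52 and 2.98 in the Puro vector. Hygro vector replicate 1 therefore stood among the SRF-binding-deficient libraries, and the other 3 vectors apart from them. IRF1, a transcription factor of the interferon response, was the only member that passed, at 31.8, 25.3, 35.3 and 42.1 FPKM against 19.8, 7.92, 4.79 and 5.7 (1.89 ± 0.38, adjusted p = 0.035; lost in 6 refits, adjusted p up to 0.11, difference 1.86). The list's median difference was 2.97, with 1.61 against the Hygro vector and 4.14 against the Puro vector. OAS2, an antiviral nucleotide synthetase named after its values were seen, shows the spread: 85.6, 8.63, 163 and 88.7 FPKM against 49.3, 0.103, 0.13 and 0.0769 (4.37 ± 1.27, adjusted p = 0.091).

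The refit without Hygro vector replicate 1 is singled out because the interferon values of that library were seen to be high. Its counts describe the remaining libraries and are no test of a rise. In it 24 of the 28 interferon loci were called higher and none lower, and the median was 3.98. Over all loci 2.13% were higher and 0.831% lower in that refit. All 28 then lay above the 3 remaining vectors in each SRF-binding-deficient library. The share of all loci that did so was not computed, so this count has no reference. With all 4 vectors kept, 1 of the 28 lay above every vector, beside 9.04% of all loci. Among the SRF-binding forms the median was 14.3 and 4.62 FPKM for MRTFB dN and 29.6 and 1.7 for MRTFB dN dPY, and 20 of the 28 loci were higher in the SRF-binding-deficient forms, beside 18.6% of all loci. Replicate 1 stood well above replicate 2 in MRTFB dN Y305A, MRTFB dN, MRTFB dN dPY and the Hygro vector, and the replicates of MRTFB dN Y305A/dPY and the Puro vector lay close. What set Hygro vector replicate 1 apart was not tested.

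**Figure D4:**
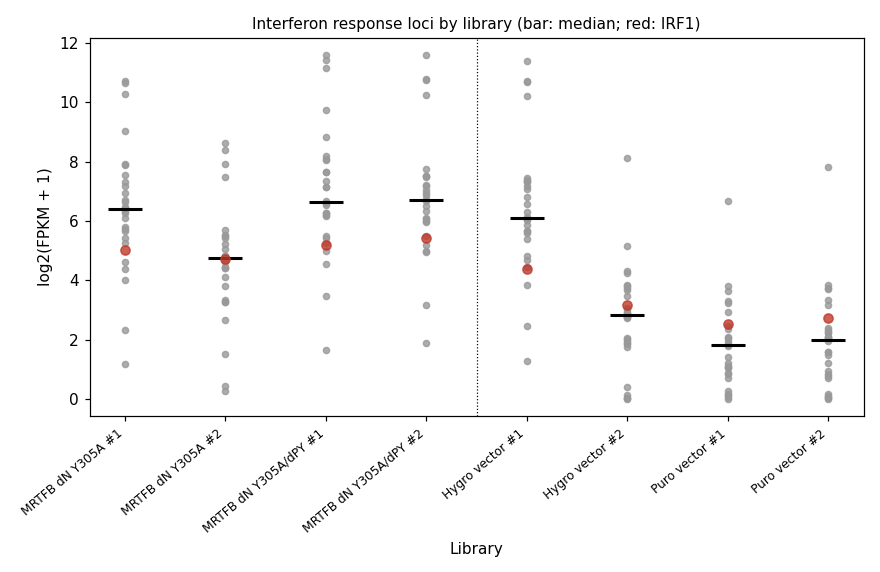
Log2(FPKM + 1) of the 28 interferon response loci (points) in each of the 8 libraries, with the median (black bar) and IRF1 (red); SRF-binding-deficient forms are left of the dotted line and empty vectors right of it. Hygro vector replicate 1, with a median of 67.1 FPKM, lies at the level of the SRF-binding-deficient libraries, and the other 3 vectors lie between 2.52 and 6.11 FPKM.

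Cytokine and growth factor genes held scattered calls, beside 1.79% higher and 0.944% lower over all loci. Of 24 NF-kB target and cytokine loci 3 rose and none fell: LIF, IL32, a cytokine without a close family, at 27.8 to 130 FPKM against 5.05 to 26.9 (2.35, adjusted p = 0.047), and CCL5, a chemokine, at 11.8 to 34.4 against 1.11 to 6.7 (2.04, adjusted p = 0.047). Among 26 loci of AP-1 and immediate early genes 3 rose and none fell. ETV5 and ETV4, ETS factors induced by ERK signalling, had 14.5 to 27.8 FPKM against 1.51 to 5.68 (2.48 ± 0.33, adjusted p = 0.0067) and 18.1 to 21.2 against 2.33 to 9.51 (2.12 ± 0.34, adjusted p = 0.015), and DUSP1, a phosphatase of MAP kinases, had 284 to 435 against 62.5 to 150 (1.67, adjusted p = 0.039). FOS, JUN and EGR1 were not among them, with differences of -1.13, 0.38 and -0.12. Of 11 EGF receptor loci TGFA (1.38, adjusted p = 0.035) and BTC (1.30, adjusted p = 0.031), which encode ligands, rose, and ERRFI1, the feedback inhibitor MIG6, fell to 12.7 to 19.8 FPKM, against 30.1 to 72 in vectors (-1.51, adjusted p = 0.034). ETV4 lost its call without replicate 1 of either form (adjusted p up to 0.06, difference 2.10), BTC in 4 refits and IL32, CCL5, DUSP1, TGFA and ERRFI1 in 6 each (adjusted p up to 0.15, that of IL32, difference 2.02), and only ETV5 and LIF kept theirs throughout.

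Most growth and housekeeping lists held no call, to be read beside 1.79% higher and 0.944% lower over all loci. No member passed in mitosis (28 loci, median -0.40), DNA replication and G1/S (30, -0.03), oxidative phosphorylation (23, -0.06), ribosomal proteins (28, 0.01), MYC and ribosome biogenesis (22, -0.03), cholesterol synthesis (23, 0.47), the unfolded protein and integrated stress response (21, 0.38), replication-dependent histones (13, -0.67), luminal epithelial genes (10, 0.41) or metallothioneins (4, 1.63). Among the luminal loci, KRT8 and KRT18 held the zeros in replicate 1 of both forms that can be failed estimates. Their replicates 2 had 9623 to 16610 FPKM, against 121.6 to 1093 in vectors. With those zeros the differences were -1.695 ± 3.04 and -1.577 ± 3.085, so the missing calls say little about these 2 genes. Of 24 p53 target and arrest loci 3 fell and none rose: CDKN1C, the p53 ubiquitin ligase MDM2 (-1.48, adjusted p = 0.0497) and SESN1 (-0.87, adjusted p = 0.04). NQO1, a quinone reductase, was the member of 18 NRF2 target loci that rose, at 138 to 243 FPKM against 34.3 to 54.3 (2.14 ± 0.30, adjusted p = 0.0081), and CGN, the tight-junction protein cingulin, that of 24 junction loci (2.15, adjusted p = 0.042). MDM2 and SESN1 lost the call in 7 refits and CGN in 6 (adjusted p up to 0.16, 0.15 and 0.15, differences -1.44, -0.86 and 1.98). DCN, decorin, a fibroblast marker, was at 0, 0.121, 0 and 0.29 FPKM against 3.39, 3.39, 2.1 and 13.7 (-2.31, adjusted p = 0.024). It lost the call without any 1 SRF-binding-deficient library (adjusted p up to 0.087, difference -2.27). In the SRF-binding forms DCN was also below every vector, at 0.0574 to 0.732 FPKM. The 7 fibroblast markers summed to 0.85 to 3.3 FPKM in SRF-binding-deficient libraries against 3.62 to 16.6 in vectors.

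**Figure D5:**
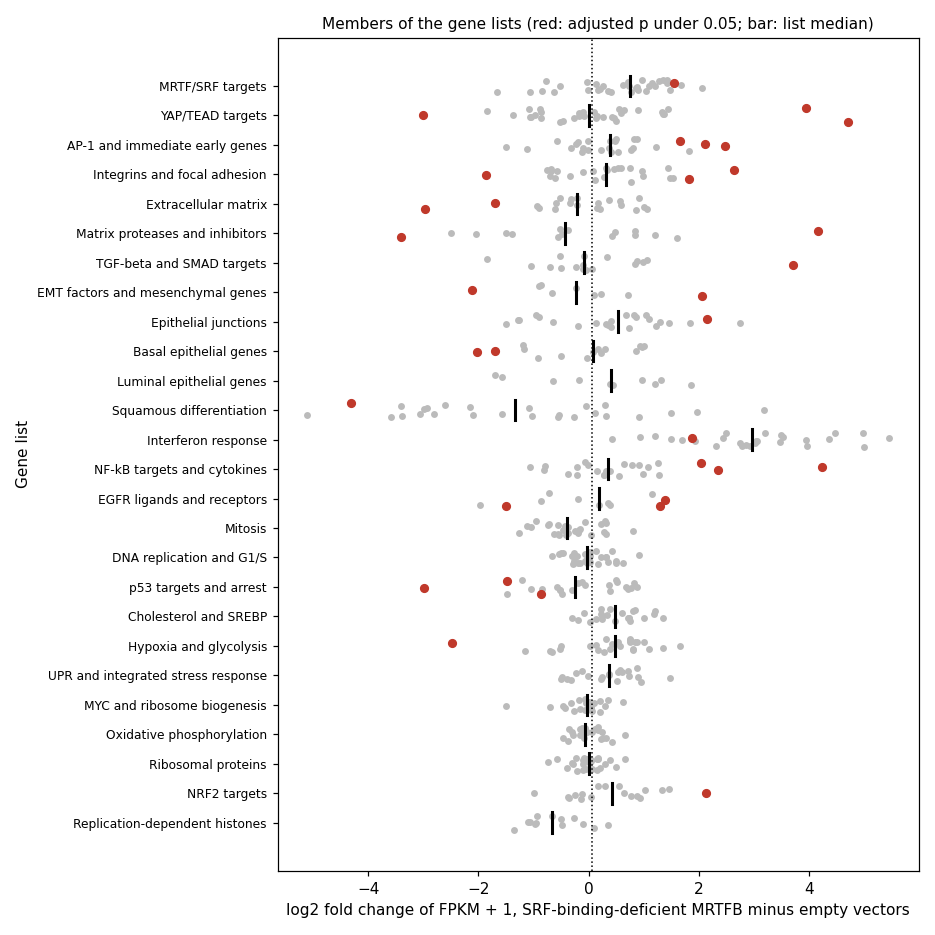
Log2 difference of FPKM + 1, SRF-binding-deficient MRTFB minus empty vectors, of each tested member of the gene lists with at least 9 tested loci; red points passed at an adjusted p under 0.05, bars are list medians and the dotted line is the median of all loci (0.07). The interferon list lies to the right with 1 red point and a median of 2.97, the squamous list to the left with a median of -1.34, and the mitosis and ribosomal protein lists hold no red point.

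The further loss of YAP binding was tested between the pair of forms, MRTFB dN Y305A/dPY minus MRTFB dN Y305A. Only 3 of 12390 loci (0.0242%) differed, all of them short noncoding RNA, and none was among the 339. At an unadjusted p under 0.05 in this limma fit were 83 loci, fewer than the share of 0.05 that chance alone would give. The spread in the fit includes the difference between the 2 vectors and that between replicates 1 and 2 of the forms. The small number of calls therefore does not show that the forms are alike. CTGF had the difference nearest to the question, -3.06 ± 0.60 (95% interval -4.42 to -1.70, unadjusted p = 0.0006, n = 2 each in a limma fit of the 8 libraries), which failed the adjustment over all loci (adjusted p = 1). CYR61 differed by -1.37 (interval -2.99 to 0.24) and ANKRD1 by -0.73 (interval -1.67 to 0.21). For all 3, both libraries of MRTFB dN Y305A/dPY were below both of MRTFB dN Y305A. LIF differed by -1.48 (interval -2.83 to -0.14, unadjusted p = 0.034, n = 2 each in the same limma fit), which also failed the adjustment (adjusted p = 1). MKL2 itself differed by 0.41 (interval -0.64 to 1.45) and GSDMA by -0.11 (interval -0.92 to 0.70).

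Set against the SRF-binding forms, 2300 of the 12390 loci (18.6%) were higher and 2044 (16.5%) lower in the SRF-binding-deficient forms. Of the 222 loci that rose against vectors, 133 were higher than in the SRF-binding forms, 19 were lower and 70 had no call. Of the 117 that fell, 47 were lower, 12 were higher and 58 had no call. Both comparisons use the same 4 SRF-binding-deficient libraries, so these counts are not independent. S100A9, a calcium-binding protein of stressed epithelium, passed against the SRF-binding forms and not against vectors: it had 381 to 841 FPKM in SRF-binding-deficient libraries and 754 to 1050 in vectors (-0.55, adjusted p = 0.39), beside 7.76 to 11.3 in the SRF-binding forms (5.97 ± 0.26, adjusted p = 1e-06). EMP1, a membrane glycoprotein, had 969 to 6358 FPKM against 240 to 1990 in vectors (1.66, adjusted p = 0.25), and 42.2 to 102 in the SRF-binding forms (5.12 ± 0.59, adjusted p = 0.00024). In 50 of the 339 loci 1 library, MRTFB dN dPY replicate 1, had no value in this comparison.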

How the data were processed

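Poly(A) libraries were strand-specific and read in pairs, per the labels' protocols. The authors' deposited table gives FPKM for 34071 loci, from Cuffnorm after Bowtie, TopHat and Cufflinks (build hg19), per the submitters' processing notes; versions, the annotation and the scaling are not given in the sources used here. It holds no counts and no positions. FPKM of a short locus can be high from few fragments, and Cufflinks-type zeros can be failed estimates. Named loci (27543) were filtered at 1 FPKM in at least 2 of the 8 libraries and tested on log2(FPKM + 1) with limma 3.58.1 in R 4.3.3 (empirical Bayes with intensity trend, two-sided, 6 residual degrees of freedom), with Benjamini-Hochberg adjustment over the 12390 loci and a threshold of 0.05. Errors are SE. Fold changes on this scale understate low genes. The forms were compared with each other in the same 8 libraries as 3 classes. In MRTFB dN dPY replicate 1, runs of at least 100 expressed loci at 0 were treated as missing.

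Members, lists and the naming rule were chosen with earlier results of these data known. Named are MRTF, SRF, YAP and TEAD genes, the 15 largest rises and falls at a mean of 3 FPKM or more with 1 name found once, up to 4 called members of each of 31 lists (624 genes, 621 found), reported targets, and the 5 largest differences each way of the other comparisons, of which some are given. The rises and falls were ranked among called loci outside the vector range, and short noncoding RNA was left out. RefSeq promoter windows were matched by symbol; genes without an entry are named only. The fits were also run on simulated data with independent libraries. Such data cannot show how the fits behave where libraries of the 2 forms with the same number deviate together. Alternatives were another pseudocount (0.1), no filter, median-of-ratios scaling, no trend, 4 group means, all 14 libraries, 1 vector at a time, a replicate block and each library left out; fits with replicates 1 or 2 of the forms alone were added after the data were seen.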

Additional observations from a re-analysis of the deposited data

Results flagged for a closer look

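A single library stood apart in 3 cases within its group of 4, out of 142 groups examined; chance alone marks about 1 group in 20. KRT86 was at 65.1 FPKM in MRTFB dN Y305A replicate 2, low against 167 to 190 in the other SRF-binding-deficient libraries. VCL was at 99.5 FPKM in MRTFB dN Y305A replicate 1, high against 78.7 to 81.2 in the others. TPM1 was at 118 FPKM in Hygro vector replicate 2, high against 17.3 to 23.4 in the other vectors.

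In all, 3 short noncoding RNAs differed between MRTFB dN Y305A/dPY and MRTFB dN Y305A. MIR4492 was at 12070 and 18290 FPKM in MRTFB dN Y305A/dPY and listed at 0 in both libraries of MRTFB dN Y305A and in all vectors (log2 difference 13.86, adjusted p = 4.1e-08). SNORA27 was listed at 0 in MRTFB dN Y305A/dPY and at 38.1 and 99.2 FPKM in MRTFB dN Y305A (-5.97, adjusted p = 0.042). SNORD88A was listed at 0 in MRTFB dN Y305A/dPY and at 513 and 282 FPKM in MRTFB dN Y305A (-8.58, adjusted p = 0.0019). Each difference is a set of exact zeros in a short locus of a poly(A) library, where a zero can be a failed estimate.

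Outside the named loci, 24 unnamed loci were at 1 FPKM or more in all 4 SRF-binding-deficient libraries and above every vector, and 27 showed the opposite.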

How the results depend on the processing

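The number of calls varied widely. The direction of the 339 loci, whose groups do not overlap, is all but fixed by that separation and says nothing of stability. Against vectors, the 222 higher and 117 lower loci became 60 and 24 with no filter, 625 and 397 with 4 group means, 1722 and 1291 with all 14 libraries, 2132 and 1518 against the Puro vector alone, and 205 and 220 against the Hygro vector alone. With 1 library left out they ranged from 46 to 501 and from 24 to 268. With replicates 1 of the forms alone they were 35 and 38, and with replicates 2 alone 10 and 5. Of the 339, 338 kept the call against the Puro vector alone and 173 against the Hygro vector alone. Scaling by the median of ratios moved the median of all loci from 0.07 to -0.03 and gave 173 and 122. Between the 2 forms, the 1 higher and 2 lower loci became 3 and 2 in the 4 libraries alone, 1 and 0 with no filter, 1 and 1 with the median of ratios, with no trend and with the replicate block, and each ranged from 1 to 3 with 1 library left out. Counts against the SRF-binding forms stayed within 1.5 times.

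Replicate numbers carry no stated batch. The differences between replicates 1 and 2 correlated at 0.68 across loci between the 2 forms, at 0.25 between the vectors and at -0.12 to 0.08 between a form and a vector. The replicate block, a term for the number common to forms and vectors, gave 186 higher and 123 lower loci. It cannot take up a deviation that the 2 forms share and the vectors lack. These counts therefore do not show how far the calls depend on the deviation shared by the forms. The main fit treats the libraries of both forms as independent, so its p-values may be too small where they deviate together.

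Among named genes 29 of 54 called ones lost the call without at least 1 library. Genes without a call that changed sign were TEAD3 (0.23 against the Puro vector alone, 0.042 with replicates 2 of the forms alone, -0.22 to 0.077 with 1 library left out), TPM1 (0.72 against the Puro vector alone, 0.40 with replicates 1 of the forms alone, -0.29 to 0.61 with 1 library left out), SRF (-0.48 against the Hygro vector alone, -0.12 to 0.58 with 1 library left out), MKL1 (-0.0748) and AXL (0.25) against the Hygro vector alone, and YAP1 (-0.060) and TEAD1 (-0.11) with replicates 2 of the forms alone. The causes were not tested. FPKM carry no depth, so no counting interval can be given.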

Other observations

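The genes of this section were chosen after their values were seen and stand for no group. TMEM173, the DNA-sensing adaptor STING, had 136 to 219 FPKM in SRF-binding-deficient libraries, against 17.8 to 52.8 in vectors (log2 difference 2.74 ± 0.37, adjusted p = 0.007), and the locus of MICB, a ligand of the natural killer receptor NKG2D, with HCP5 43 to 74.4 against 2.97 to 15.6 (2.85, adjusted p = 0.01). Both kept the call whichever library was left out. CD274, the PD-1 ligand PD-L1 and the genomic neighbour of PDCD1LG2, had 14.9, 6.24, 15.2 and 13.9 FPKM in SRF-binding-deficient libraries, against 5.52, 1.58, 0.905 and 3.88 in vectors (1.87, adjusted p = 0.045). Of the other ligands of NKG2D, MICA had 110 to 169 FPKM against 24.2 to 77.7 (1.62, adjusted p = 0.048), ULBP2 20.3 to 39.7 against 2.38 to 10.5 (1.97, adjusted p = 0.037) and the locus of ULBP3 with RAET1K 5.78 to 8.27 against 2.08 to 3.84 (1.07, adjusted p = 0.035). CD274 and ULBP2 lost the call in 6 of the 8 refits that leave out 1 library and MICA and the ULBP3 locus in 7 (adjusted p up to 0.16, that of MICA, difference 1.5), without Puro vector replicate 1 or replicate 1 of either form in each case. Hygro vector replicate 1, the vector with high interferon genes, was the highest vector for CD274 and the MICB locus but not for TMEM173, MICA, ULBP2 or the ULBP3 locus. In the SRF-binding forms CD274 (10.6 to 17.3 FPKM), MICA (95.9 to 144) and the ULBP3 locus (5.38 to 9.21) had no call against the SRF-binding-deficient forms. ULBP2 was higher there (90.6 to 163, adjusted p = 0.0003), and TMEM173 (2.96 to 7.75) and the MICB locus (33.8 to 42.9) were lower.

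Of the hair keratins other than KRT86, KRT83 had 29.2, 18.3, 25.1 and 18.9 FPKM against 5.92, 9.76, 0.27 and 2.09 (2.51, adjusted p = 0.047), and KRT85 had 4.94, 1.65, 4.69 and 2.1 against 0.628, 0.342, 0 and 0.0347 (1.73, adjusted p = 0.024), while KRT81, at 5398 to 10260 against 667 to 3818, did not pass (2.37, adjusted p = 0.083). KRT83 lost the call in 6 refits (adjusted p up to 0.15, difference 2.38) and KRT85 in 3 (adjusted p up to 0.098, difference 1.55), both without Puro vector replicate 1 or replicate 1 of either form. Both hypoxia-inducible factors, HIF1A at 43.8 to 50.7 against 20.6 to 27.6 FPKM (0.97, adjusted p = 0.047) and EPAS1 at 36.2 to 48.9 against 12.4 to 17.8 (1.36, adjusted p = 0.016), rose, while of 26 hypoxia and glycolysis loci CA12 fell and none rose; HIF1A lost the call in 7 refits (adjusted p up to 0.16, difference 0.95) and EPAS1 in 3 (adjusted p up to 0.069, difference 1.36), both without replicate 1 of either form. HOPX, a homeodomain-only protein, fell to 0.104 to 0.243 FPKM, against 1.92 to 15.1 in vectors (-2.37, adjusted p = 0.024), and FOXO1 to 0.824 to 1.72 against 4.2 to 14.2 (-2.0, adjusted p = 0.012). HOPX lost the call in 5 refits, those without Puro vector replicate 1 or any 1 SRF-binding-deficient library (adjusted p up to 0.085, difference -2.35), and FOXO1 without MRTFB dN Y305A replicate 1 (adjusted p = 0.051, difference -1.89).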
